A study of Rattus norvegicus with 4 samples.

Results

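Marker genes of the epithelial and of the mesenchymal state were measured in FRT cells, an epithelial line from the thyroid of the Fischer rat that grows as a polarised monolayer. The 8 genes were taken by Ensembl identifier from the 32754 genes counted: 3 epithelial markers (Cdh1, Krt8 and Epcam) and 5 mesenchymal markers (Vim, Cdh2, Fn1, Col1a1 and Acta2). The series holds 1 group, untreated FRT cells kept in serum-supplemented Coon's modification of Ham's F12 medium, labelled as biological replicates 1 to 4. RNA was counted from 3' end libraries, in which a transcript gives a tag near its 3' end, so levels were compared between genes as CPM (counts scaled to a common library total, the counts per 1000000) without division by length. Tags beyond the annotated end of a gene are not counted, so a gene whose 3' end is incomplete in the annotation reads too low. The annotation release is unknown here, and how far this bears on the levels and ratios between genes was not tested. Between 1160202 and 1999175 counts fell on genes in each library. A single count stood for 0.50 to 0.862 CPM. A floor of 3 counts, about the 1-sided upper 95% limit of the expected count where 0 is observed, stood for 1.501 to 2.59 CPM.

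Epithelial cells hold together in sheets through junctions built on E-cadherin, carry keratin filaments and rest on a basement membrane. Mesenchymal cells are loosely attached, carry vimentin filaments, often use N-cadherin in place of E-cadherin, and secrete fibrillar matrix. In an epithelial-mesenchymal transition cells lose the first set and gain the second, and repressors of the Snail and Zeb families that bind E-box sequences are known to silence epithelial genes. Many epithelial cell lines in culture express vimentin beside keratins.

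The bulk RNA of the FRT preparations held high levels of Cdh1, Epcam and Vim. Krt8 was lower, at rank 528, and the other mesenchymal genes were spread over a wide range of levels. Cdh1 had a mean of 972 CPM ± 321 (SD, n = 4), Epcam 870 CPM ± 111 (SD, n = 4) and Vim 821 CPM ± 385 (SD, n = 4), which put them at ranks 62, 78 and 87 of all genes by mean level. Krt8 (239 CPM ± 147, SD, n = 4) and Fn1 (191 CPM ± 75.0, SD, n = 4) came next, then Col1a1 (71.1 CPM ± 44.1, SD, n = 4). Cdh2 (4.77 CPM ± 1.47, SD, n = 4) and Acta2 (1.99 CPM ± 1.12, SD, n = 4) were the lowest. Of the 8 genes, 7 reached 1 CPM in every library, where 26.7% of all annotated genes did. The exception was Acta2, which reached it in 3 of 4 libraries. The median of all genes detected in this way was 26.0 CPM.

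**Figure D1:**
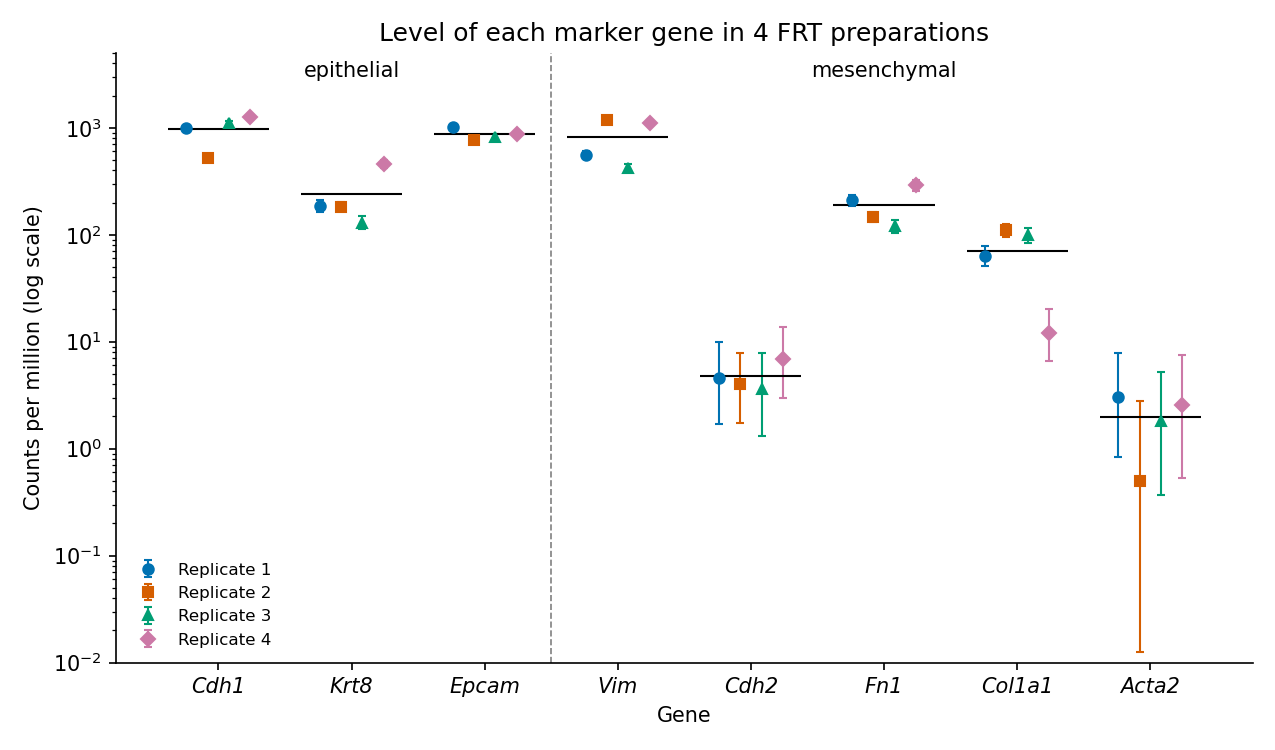
Level of each marker gene in CPM on a log axis, by gene. Each point is 1 library with its exact Clopper-Pearson 95% interval (counting error only), and the black line is the mean of 4 libraries. Cdh1, Epcam and Vim sit between 424 and 1261 CPM, while Cdh2 and Acta2 stay below 7 CPM.

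Cdh1 encodes E-cadherin, the adhesion protein of the epithelial junction (ENSRNOG00000020151.2). It stood at 989 CPM in replicate 1, 520 CPM in replicate 2, 1116 CPM in replicate 3 and 1261 CPM in replicate 4. Replicate 2 was thus low and the other libraries lay close together. Its rank among all genes was 54 to 66 in replicates 1, 3 and 4, and 129 in replicate 2. The counts behind these values were 1040 to 1865 per library.

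Epcam encodes an adhesion and signalling protein of the epithelial surface (ENSRNOG00000015667.5). It stood at 1025 CPM in replicate 1, 767 CPM in replicate 2, 821 CPM in replicate 3 and 865 CPM in replicate 4. It was the steadiest of the 8 genes, with a coefficient of variation of 12.7%. Cdh1 and Epcam could not be ordered: each was the higher in 2 of 4 libraries, and their means differed 1.12-fold.

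Krt8 encodes keratin 8, a filament protein of simple epithelia (ENSRNOG00000009779.5). It stood at 187 CPM in replicate 1, 184 CPM in replicate 2, 130 CPM in replicate 3 and 456 CPM in replicate 4. Replicate 4 was the highest, and the other libraries lay within 130 to 187 CPM. Krt8 made up 17.7% of the counts of the 3 epithelial genes in replicate 4, compared with 6.28% in replicate 3. Keratins and actins belong to families with similar sequences and only uniquely aligned reads were counted, so the levels of Krt8 and Acta2 may be too low. The size of this loss was not tested.

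Vim encodes vimentin, the filament protein of mesenchymal cells (ENSRNOG00000018087.5). It stood at 560 CPM in replicate 1, 1187 CPM in replicate 2, 424 CPM in replicate 3 and 1111 CPM in replicate 4. The libraries fell apart into high values in replicates 2 and 4 and low values in replicates 1 and 3. Vim held between 65.4% and 82.0% of the counts of the 5 mesenchymal genes in each library, so sums over that side follow mainly this gene. It was above Krt8, the next gene in the order of levels, in 4 of 4 libraries. It was above Epcam in replicates 2 and 4 and below it in replicates 1 and 3, and these neighbours in the order of levels did not differ beyond their spread.

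Fn1 encodes fibronectin, a matrix glycoprotein (ENSRNOG00000014288.8). It stood at 210 CPM in replicate 1, 147 CPM in replicate 2, 120 CPM in replicate 3 and 289 CPM in replicate 4. Its range overlapped that of Krt8, which was higher in 3 of 4 libraries. Col1a1 encodes a chain of type I collagen, the main fibrillar collagen of connective tissue (ENSRNOG00000003897.6). It stood at 63.6 CPM in replicate 1, 110 CPM in replicate 2, 98.8 CPM in replicate 3 and 12.1 CPM in replicate 4. The value in replicate 4 rests on 14 counts (95% Clopper-Pearson interval 6.60 to 20.2 CPM) and lies below the intervals of the other libraries, whose lowest bound was 50.7 CPM. Fn1 was above Col1a1 in 4 of 4 libraries without overlap of their ranges.

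Cdh2 encodes N-cadherin, the cadherin of mesenchymal and neural cells (ENSRNOG00000015602.6). It had 6, 8, 6 and 8 counts in replicates 1 to 4, or 4.598, 4.00, 3.59 and 6.90 CPM. Every library was above the floor of 3 counts, yet the intervals were wide, from 1.32 CPM at the lowest bound to 13.6 CPM at the highest. Acta2 encodes smooth muscle alpha-actin, a marker of myofibroblasts (ENSRNOG00000058039.1). It had 4, 1, 3 and 3 counts, or 3.07, 0.50, 1.80 and 2.59 CPM in replicates 1 to 4. Only replicate 1 exceeded 3 counts, and the intervals ran from 0.0127 CPM at the lowest bound to 7.85 CPM at the highest. These values are thus near the limit of the depth. Cdh2 was above Acta2 in 4 of 4 libraries, though the counting intervals of the genes overlapped in each.

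Of the 8 genes, 4 were matched by symbol in the RefSeq promoter table of the rat assembly GRCr8: Krt8, Epcam, Vim and Acta2. Their 250 bases before the start of the gene are printed because they set the most abundant matched gene of each side beside a weaker one. They are given 5′ to 3′ on the strand of the gene, with the E-box CACCTG, searched on both strands as CACCTG and CAGGTG, in capitals.
Krt8: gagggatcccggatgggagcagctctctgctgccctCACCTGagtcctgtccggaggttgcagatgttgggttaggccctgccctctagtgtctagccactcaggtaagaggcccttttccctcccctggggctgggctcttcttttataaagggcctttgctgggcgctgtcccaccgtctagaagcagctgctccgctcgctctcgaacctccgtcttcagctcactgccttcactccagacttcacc
Epcam: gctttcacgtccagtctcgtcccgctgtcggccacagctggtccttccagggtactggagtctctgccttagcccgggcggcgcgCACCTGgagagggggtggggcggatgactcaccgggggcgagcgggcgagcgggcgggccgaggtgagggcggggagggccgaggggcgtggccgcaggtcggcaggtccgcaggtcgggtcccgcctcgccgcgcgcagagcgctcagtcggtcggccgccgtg
Vim: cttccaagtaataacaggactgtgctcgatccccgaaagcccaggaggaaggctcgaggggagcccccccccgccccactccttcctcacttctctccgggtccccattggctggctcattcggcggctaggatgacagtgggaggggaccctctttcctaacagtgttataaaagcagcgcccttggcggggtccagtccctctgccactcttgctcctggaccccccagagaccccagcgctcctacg
Acta2: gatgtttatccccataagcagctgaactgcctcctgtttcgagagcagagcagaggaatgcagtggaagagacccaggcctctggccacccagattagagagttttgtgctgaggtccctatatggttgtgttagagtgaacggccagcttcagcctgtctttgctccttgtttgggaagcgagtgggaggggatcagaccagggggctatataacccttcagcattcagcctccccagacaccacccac
The Krt8 window (chr7:135010340-135010589, minus strand) held 1 such E-box, starting 214 bases before the gene, and the Epcam window (chr6:12649679-12649928, minus strand) held 1, starting 165 bases before it. None lay in the Vim window (chr17:81577011-81577260, plus strand) or the Acta2 window (chr1:241172504-241172753, minus strand). The motif occurred in 5323 of 33469 windows of this length, or 15.9%. A match describes the letters only. These libraries hold no measurement of binding, and a link between the motif and the levels was not tested.

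The ratio of E-cadherin to N-cadherin within a library does not depend on how libraries are scaled. Cdh1 counts were 215 times those of Cdh2 in replicate 1 (95% interval from the exact binomial 98.5 to 587) and 130 times in replicate 2 (65.7 to 302). They were 311 times those of Cdh2 in replicate 3 (143 to 848) and 183 times in replicate 4 (92.6 to 424). The geometric mean was 200-fold, or 7.64 ± 0.52 on the log2 scale (SD, n = 4), and Cdh1 was the higher in 4 of 4 libraries. In an exact two-sided sign-flip permutation test of the 4 log2 ratios, 2 of 16 sign assignments were as extreme, the fewest that 4 libraries allow, so the test could not reach 0.05. The highest ratio was 2.39 times the lowest, and none of the 6 pairs of libraries differed (Fisher's exact test on counts, adjusted p from 0.319 to 0.796, Benjamini-Hochberg over the 12 pair tests of this ratio and the next). With 6 to 8 counts of Cdh2 a library, differences of this size were not detectable at this depth.

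The keratin to vimentin ratio had the opposite side. Krt8 counts were 0.334 of those of Vim in replicate 1 (95% interval 0.288 to 0.386), 0.155 in replicate 2 (0.138 to 0.173), 0.306 in replicate 3 (0.262 to 0.357) and 0.410 in replicate 4 (0.370 to 0.454). Vim was the higher in 4 of 4 libraries. The geometric mean ratio was 0.284, or -1.82 ± 0.61 on the log2 scale (SD, n = 4), that is 3.52 counts of Vim for each count of Krt8 (exact two-sided sign-flip permutation test, again the fewest possible, 2 of 16 assignments). Replicate 2 was below the other libraries with no overlap of intervals. Of the 6 pairs of libraries, 4 differed (Fisher's exact test, adjusted p from 3.72e-37 to 0.0052): replicate 2 from each of the others, and replicate 3 from replicate 4. Replicates 1 and 3 (exact adjusted p = 0.564) and replicates 1 and 4 (exact adjusted p = 0.0567) missed the threshold. These tests compare libraries by their counts, not conditions, and their p-values cover counting error only, so that amplified copies of a molecule, which the counts do not mark, would make them too small.

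**Figure D2:**
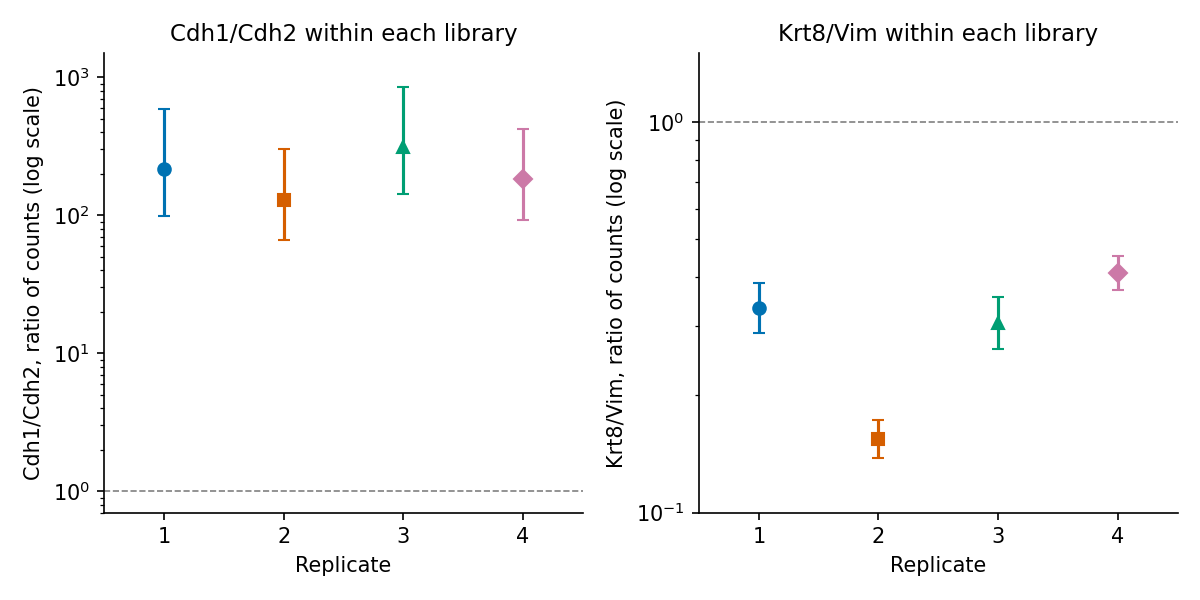
Ratio of counts of Cdh1 to Cdh2 (left) and of Krt8 to Vim (right) in each of 4 libraries, on log axes, with exact binomial 95% intervals (counting error only). The dashed line marks equal counts. All Cdh1/Cdh2 ratios lie at 130 or above, all Krt8/Vim ratios at 0.410 or below, and replicate 2 has the lowest value of both.

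Every epithelial gene was also set against every mesenchymal gene. In 11 of the 15 pairs the epithelial gene had more counts in all 4 libraries, and in 1 pair, Krt8 and Vim, it had fewer in all 4. The pairs share genes. The 11 include every pair with Cdh2 or Acta2, which rest on 6 to 8 counts of Cdh2 or 1 to 4 counts of Acta2 a library. The order changed with the library in the other 3 pairs. Cdh1 exceeded Vim 1.76-fold in replicate 1, 2.63-fold in replicate 3 and 1.13-fold in replicate 4, while in replicate 2 the Cdh1/Vim ratio was 0.438. The Epcam/Vim ratio was 1.83 in replicate 1 and 1.94 in replicate 3, against 0.646 in replicate 2 and 0.779 in replicate 4. The Krt8/Fn1 ratio was 0.891 in replicate 1, 1.25 in replicate 2, 1.08 in replicate 3 and 1.58 in replicate 4. In replicate 1 the counting intervals of Krt8 (164 to 212 CPM) and Fn1 (186 to 236 CPM) overlapped, as they did in replicate 3. The order of Krt8 and Fn1 in these libraries was thus not settled. Which of E-cadherin, EpCAM and vimentin was the most abundant thus depended on the preparation.

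**Figure D3:**
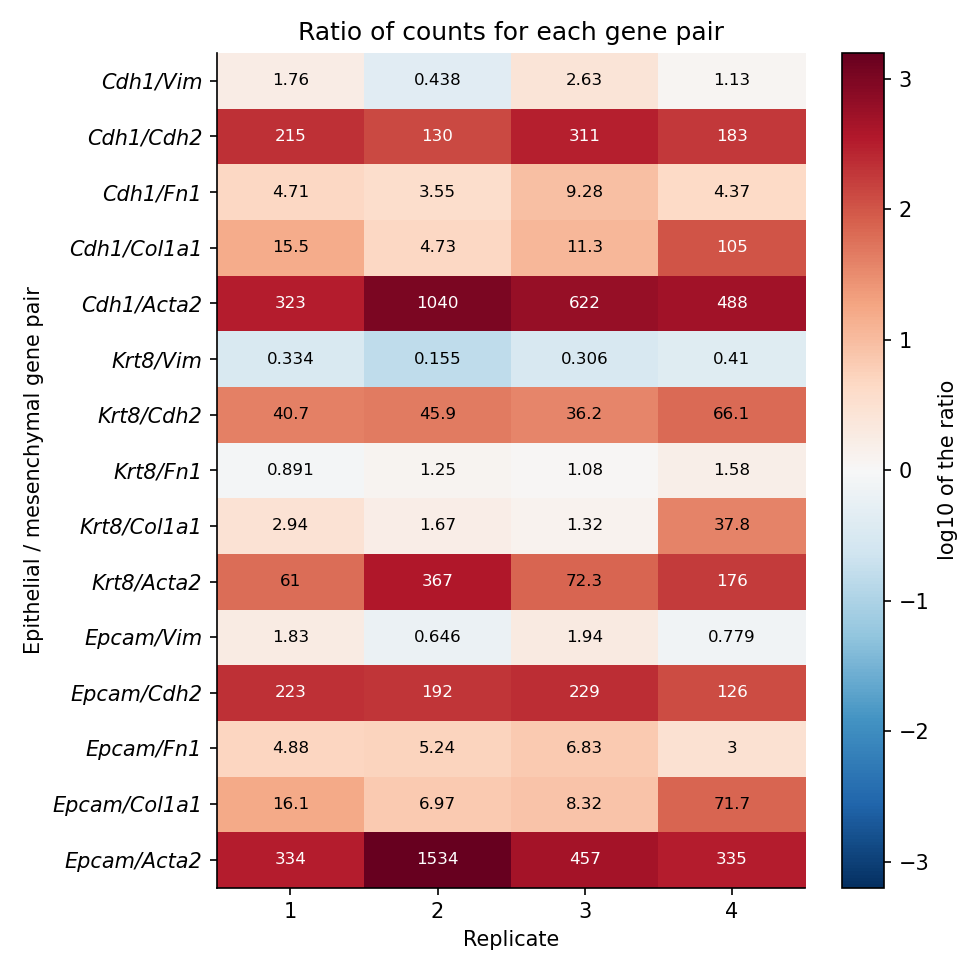
Ratio of counts of each epithelial to each mesenchymal gene (15 pairs, rows) in 4 libraries (columns), printed as the ratio and coloured by its log10, red where the epithelial gene is higher and blue where it is lower. Blue cells occur in the 3 pairs with Vim and, in replicate 1, in Krt8/Fn1 at 0.891.

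Summed over the list, epithelial genes held 72.3% of the marker counts in replicate 1 (95% Clopper-Pearson interval 70.9 to 73.7), 50.4% in replicate 2 (49.1 to 51.7), 76.1% in replicate 3 (74.8 to 77.3) and 64.5% in replicate 4 (63.1 to 65.9). No 2 of these intervals overlapped, and the mean was 65.8% ± 11.4 (SD, n = 4). The 3 epithelial genes summed to 2080 CPM ± 461 and the 5 mesenchymal genes to 1090 CPM ± 406 (SD, n = 4). The mesenchymal sum was 1449 CPM in replicate 2 and 1421 CPM in replicate 4, while replicates 1 and 3 had 841 and 649 CPM, the same split as Vim. The epithelial sum was lowest in replicate 2, at 1471 CPM, and highest in replicate 4, at 2582 CPM. By deposited totals, replicate 4 was thus high on both sides. The sums were not made with edgeR's TMM scaling, used below, which lowers replicate 4 (factor 1.14) and raises replicate 2 (factor 0.889). With that scaling Krt8 and Fn1 were again highest in replicate 4, but Epcam, at 760 TMM-scaled CPM, and Col1a1 were lowest there. In bulk RNA, fewer cells of a type and less RNA per cell cannot be told apart, and neither can cells that carry both sets and a mixture of cells that carry 1 each.

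**Figure D4:**
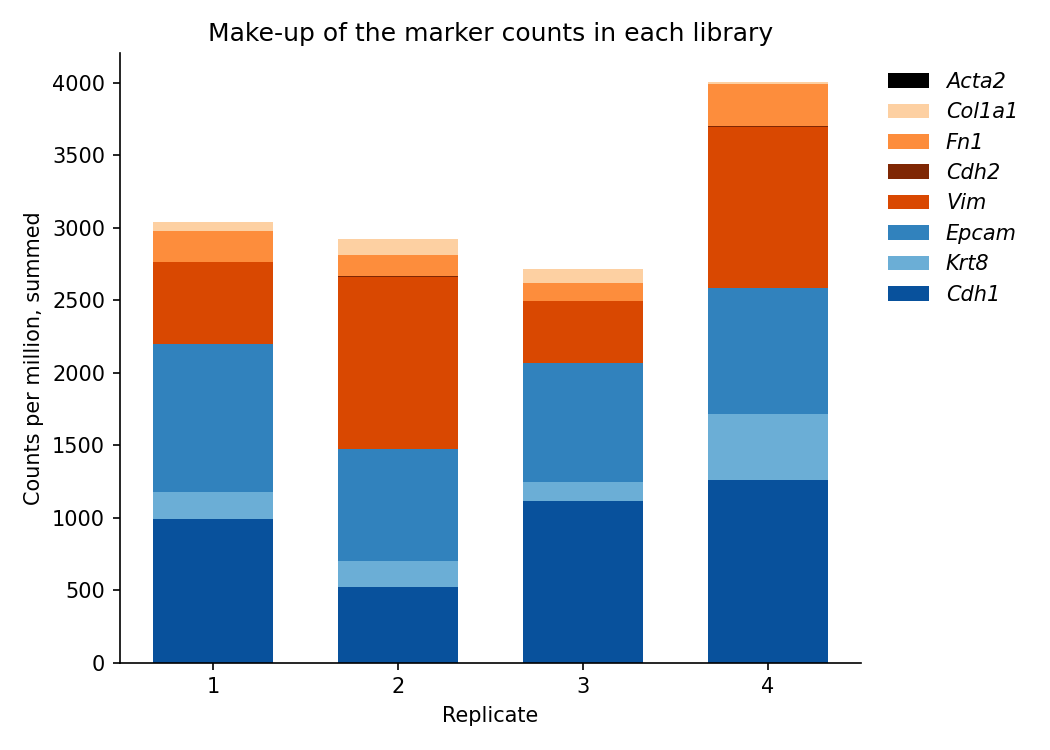
CPM of the 8 marker genes stacked for each of 4 libraries, epithelial genes in blue below and mesenchymal genes in orange to black above. The blue part is smallest in replicate 2, at 1471 CPM, and the orange part is largest in replicates 2 and 4.

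Variation between preparations beyond counting noise was tested for all genes with at least 40 counts over the 4 libraries, by a chi-square test after edgeR's TMM scaling. All 6 marker genes that could be tested were called (Benjamini-Hochberg adjusted over all genes at 0.05), where 65.7% of all 7571 tested genes were, and 85.2% of the 2204 genes with at least 400 counts, the range in which all 6 lie. The count of 6 is therefore little above the background. Cdh2, with 28 counts in all, and Acta2, with 11, were below the minimum.

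The size of the differences varied widely among the markers, with a median of 2.47-fold over the 6 tested, against 1.96-fold over all tested genes. Between its highest and lowest library, after TMM scaling, Col1a1 differed 11.7-fold (adjusted p = 1e-28), from 124 TMM-scaled CPM in replicate 2 to 10.6 in replicate 4. That range exceeded those of 99.4% of the 1474 tested genes whose mean level was within 1.5-fold of its own, which had a median range of 1.69. Without replicate 4 the range of Col1a1 was 2.00-fold. Vim differed 2.99-fold (adjusted p = 4.7e-210), more than 89.6% of 106 genes of similar level. Krt8 differed 2.93-fold (adjusted p = 1.94e-52), more than 93.9% of 607 such genes, and 1.497-fold without replicate 4.

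Cdh1 and Fn1 were nearer to the middle of genes like them. Cdh1 differed 2.01-fold (adjusted p = 2.27e-78), more than 66.7% of 90 genes of similar level, and 1.23-fold without replicate 2. Fn1 differed 2.00-fold (adjusted p = 5.81e-14), more than 76.8% of 740 such genes. Epcam differed 1.30-fold (adjusted p = 6.87e-08), more than only 15.5% of 97 such genes. Against edgeR's trend of genes of similar abundance, which asks whether a gene varied more than its peers, none of the 6 was called at an adjusted p under 0.05, where 0.0647% of 6186 genes were (4 genes). At an unadjusted p under 0.05 in that test were 3 of the 6, Col1a1 (0.000473), Krt8 (0.0235) and Vim (0.0363), beside 360 of the 6186 genes. The edgeR adjusted p of Col1a1 in that test was 0.122.

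**Figure D5:**
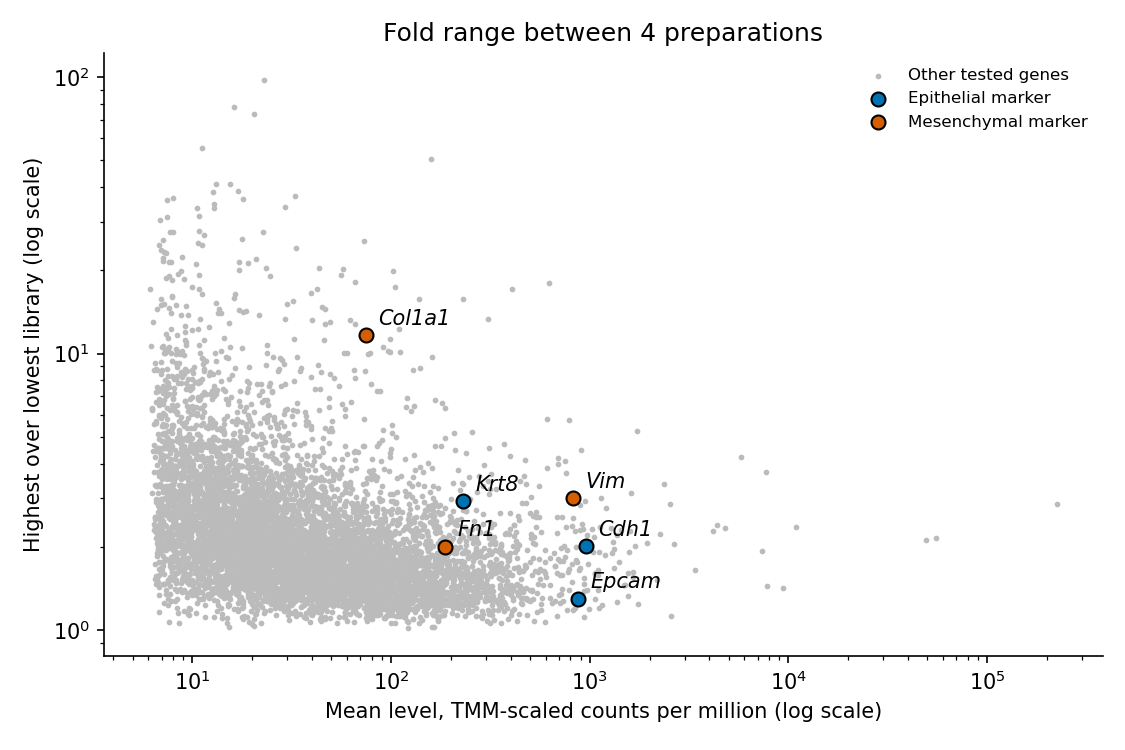
Highest over lowest library, after TMM scaling, against mean TMM-scaled CPM for tested genes, both on log axes. Grey points are the other tested genes, blue points epithelial and orange points mesenchymal markers, and 20 of the 7571 genes with a library at 0 are left off. Col1a1 lies far above most genes of its level at 11.7, and Epcam below most genes of its level at 1.30.

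The genes of 1 side did not all peak in the same library. After TMM scaling Cdh1 was highest in replicate 3, Epcam in replicate 1 and Krt8 in replicate 4. On the mesenchymal side Vim and Col1a1 were highest in replicate 2 and Fn1 in replicate 4. Krt8 and Fn1, from opposite sides, both peaked in replicate 4 and were lowest in replicate 3, and so they were with the other scalings tried, by deposited totals or DESeq2 size factors. Vim, on the same side as Fn1, was also lowest in replicate 3 with each of these scalings, while Col1a1 was lowest in replicate 4. With deposited totals Cdh1 was highest in replicate 4 and Epcam lowest in replicate 2 rather than replicate 4, so the order of close libraries for these genes depends on the scaling. Ratios within a side were compared, after their values were seen, for the 6 genes with at least 40 counts. On the mesenchymal side the Col1a1/Fn1 ratio was 0.303 in replicate 1, 0.751 in replicate 2, 0.821 in replicate 3 and 0.0418 in replicate 4, a 19.6-fold span. The Col1a1/Vim ratio spanned 21.4-fold, from 0.0109 in replicate 4 to 0.233 in replicate 3. Without replicate 4 these spans were 2.71-fold and 2.51-fold. The Vim/Fn1 ratio spanned 3.04-fold, and 1.44-fold without replicate 2. On the epithelial side the Krt8/Epcam ratio spanned 3.33-fold (1.51-fold without replicate 4), Krt8/Cdh1 3.11-fold and Cdh1/Epcam 2.15-fold.

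Replicate 4, in which Col1a1 was lowest and Krt8 and Fn1 highest, was the shallowest library, and replicate 2, in which Vim and Col1a1 were highest and Cdh1 lowest, the deepest. Uniquely aligned reads assigned to no gene were 34.4% to 38.3% of a library, highest in replicate 1. The part of depth and of unassigned reads in these differences was not tested. No record of density or passage of the cultures was used here.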

How the data were processed

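Total RNA of 4 samples of 1 group, untreated FRT cells, was made into 3' end libraries with a QuantSeq kit and sequenced single-end, per the labels' protocols. The authors deposited raw counts per gene; STAR, HTSeq and the rat build rn6 are named in the submitters' processing notes, with strand setting and annotation release not given in the sources used here. Lines that name no gene were left out of totals; uniquely aligned reads assigned to no gene were 35.8% ± 1.76 (SD, n = 4). The symbols came with the list of identifiers that defined the genes, since the files hold identifiers only and the reference table used here carries no Ensembl identifier. Lists of further epithelial, mesenchymal, thyroid and other markers could not be linked and were not analysed here. The genes and lists were chosen with earlier results of these data known. The rule for named genes was to name all 8, and ratios within a side were added after seeing the data.

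CPM used totals over genes. Intervals are exact Clopper-Pearson 95% intervals and, as the counts carry no mark of amplified duplicates, cover counting error only, as do the floors of 3 counts. Variation was tested by chi-square on TMM effective totals with a minimum of 40 counts and Benjamini-Hochberg adjustment at 0.05, and against edgeR's robust quasi-likelihood trend. The chi-square and Fisher p-values set differences between these libraries against counting error only and treat reads as independent molecules. The labels call the samples biological replicates. Each pair of libraries differed in 1607 to 2906 genes, so all 4 were kept as separate samples. On simulated counts for this test, 1 of 7527 genes was called under counting noise alone, and 68 of 100 genes changed 2-fold and 100 of 100 changed 4-fold in 1 library were recovered, with 12 of 7372 unchanged genes called beside them. R 4.3.3, edgeR 4.0.16, DESeq2 1.42.0, Python 3.11.15 and SciPy 1.17.1 were used. Alternatives were other scalings, count minimums and detection thresholds, summed counts, an added 0.5, and leaving out each library.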

Additional observations from a re-analysis of the deposited data

Results flagged for a closer look

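Each of 11 sets of 4 values (the CPM of the 8 genes, the Cdh1/Cdh2 and Krt8/Vim ratios and the epithelial share) was examined for a library standing apart, and 0 passed Dixon's 95% critical value. Krt8 came closest, with replicate 4 at 456 CPM and a gap of 0.825 of the whole range. Outside the gene counts, 645244 to 1049460 uniquely aligned reads per library were assigned to no gene and were not analysed further.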

How the results depend on the processing

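No paired analysis was possible because all 4 samples form a single group. The 4973 genes called for variation became 1877 with a minimum of 400 counts, where only 2204 genes were tested, and 4 against edgeR's trend of similar genes, which changes the null and the test, and also the filter (6186 genes tested in place of 7571). Against that trend 0 of the 6 tested markers were called (edgeR adjusted p from 0.122 for Col1a1 to 0.997 for Epcam). At an unadjusted p under 0.05 were 3 of the 6, beside 360 of the 6186 genes. All 6 markers were called under every other scaling, minimum and left-out library tried, but so were most of the genes tested. The lowest share was 3486 of 6831 genes, without replicate 2, and the highest 1877 of 2204, with a minimum of 400 counts. Among the 6 markers, the adjusted p closest to the threshold was that of Epcam without replicate 1, at 0.0373 (edgeR scaling, chi-square). With a minimum of 10 counts Cdh2 (adjusted p = 0.858) and Acta2 (adjusted p = 0.505) were tested and not called, which at 28 and 11 counts says little. The epithelial share of 65.8% became 80.4% without Cdh1 and Vim, the most abundant gene of each side, and lay between 62.4% and 71.0% over the fits that leave out a library. Over the same fits the Cdh1/Cdh2 ratio of 200 lay between 172 and 230 and the Krt8/Vim ratio of 0.284 between 0.251 and 0.347. Of the 8 genes, 7 were detected at 1 CPM in every library, where 26.7% of all annotated genes were. With 1 CPM in at least 1 library 8 were detected, and with 10 CPM or 10 counts in every library 6 were. The shares of all genes at these other thresholds were not computed. Depth limits what can be said of Cdh2 and Acta2.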
